A study of Mus musculus with 7 samples.

Results

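The genes described here are the nuclear genes for subunits of mitochondrial oxidative phosphorylation, the machinery that turns the energy of reduced cofactors into ATP. They were chosen by symbol. The rule took rows named Ndufa, Ndufb, Ndufc, Ndufs or Ndufv with a digit, rows starting with Sdh, Uqcr or Atp5, and rows starting with Cox4, Cox5, Cox6, Cox7 or Cox8 other than Cox7a1 and Cox8b. It took 76 of the 23930 rows of the panel. Of these, 69 are subunits or their isoforms, with 31 in complex I, 4 in complex II, 8 in complex III, 16 in complex IV and 10 in complex V. The other 7 encode no subunit. They are the assembly factors Sdhaf1, Sdhaf2, Sdhaf3 and Sdhaf4, the complex I assembly factor Atp5sl and its relative Atp5s (Dmac2 and Dmac2l in RefSeq), and the pseudogene Atp5c1-ps. Ndufa4, named for complex I, and its paralog Ndufa4l2 were counted with complex IV, where the NDUFA4 protein is now placed.

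The tissue was non-involved mammary gland from the side opposite the tumor, fixed and embedded in paraffin, from mice that the labels call age-matched, collected when tumors had appeared. The 3 control mice (mice 1, 2 and 3) were Blg-Cre;Brca1f/f;Trp53+/−, and the 4 HMMR Tg/Tg mice (mice 7, 8, 9 and 11) carried in addition 2 copies of a human HMMR transgene in the Rosa26 locus, silent until Cre removes a stop cassette. Both groups therefore shared the floxed Brca1 alleles, the loss of 1 Trp53 allele and the Cre, whose β-lactoglobulin promoter drives it in mammary epithelium during lactation, so stromal, fat and muscle cells of the sections are not the cells in which Cre was to act. Each sample was 1 mouse, measured with an amplicon panel (1 per gene), and values are RPM, reads per 1e6 reads of the mouse, without correction for length, so a gene can be compared between mice but not with another gene.

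Complex I takes electrons from NADH and complex II from succinate. Both pass them through ubiquinone to complex III, cytochrome c and complex IV, which hands them to oxygen. Complexes I, III and IV pump protons across the inner membrane, and complex V, the ATP synthase, lets them return through its membrane part (Fo) to drive its catalytic head (F1). All subunits of complex II, and most of the others, are nuclear genes. A few core subunits of the other complexes come from mitochondrial DNA, and none of the 13 such genes had a row on the panel. Some subunits of complex IV have isoforms of heart and skeletal muscle, among them Cox6a2, Cox7a1 and Cox8b, in place of Cox6a1, Cox7a2 and Cox8a. In the mouse, brown fat also carries the Cox7a1 and Cox8b forms. In the mammary gland, mitochondria supply the energy for milk synthesis by the epithelium.

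Total reads ran from 5532358 in control mouse 1 to 9345916 in HMMR Tg/Tg mouse 8, and mouse 11 had the next lowest total, 5976449. For a gene without a read, counting error allows 3 reads, or 0.321 to 0.542 RPM by library. The 12 skeletal muscle markers had a summed level of 1743 to 9818 RPM in the controls and 38.3 to 120 RPM in the HMMR Tg/Tg mice. Markers of luminal epithelium summed to 3395 to 52390.2 RPM and to 4314 to 28767 RPM, those of adipocytes to 1663 to 5405 RPM over all mice, so the tissue carried the genes its label names. Because these are bulk samples, fewer cells of a type and less RNA per cell cannot be told apart.

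Of the members, 71 reached 1 RPM in 3 or more mice and were tested. Among these, 1 was lower in HMMR Tg/Tg mice and 0 were higher at an adjusted p under 0.05 in limma, against 0.367% lower and 0.0382% higher of the 13080 genes tested. The gene that fell was Cox6a2, the muscle isoform of complex IV subunit VIa. The same 1 and 0 came from edgeR (0.497% and 0.0306% of all genes) and from DESeq2 (1.46% and 0.617%). Before adjustment (p under 0.05), 7 members were higher and 1 was lower by limma, where 6.49% and 3.22% of all genes were. Both edgeR and DESeq2 gave 4 higher members and 1 lower at that level (4.44% and 5.13% of all genes in edgeR, 4.62% and 6.03% in DESeq2). The values of the groups did not overlap for 6 members on the higher side and for 1 on the lower side, beside 6.52% and 3.34% of all genes.

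The tested members leaned towards higher values in HMMR Tg/Tg mice, and this lean rested on 1 control mouse. Of the 71, 57 had a positive log2 fold change and 14 a negative (80.3% positive, against 61.2% of all genes), and their median was 0.20, beside 0.11 over all genes. Scaling by the count tools lowered both. The median was 0.07 in edgeR, with 49 members positive, and 0.05 in DESeq2, with 46 positive, beside all-gene medians of 0.01 and −0.01. Without control mouse 1 the limma median over the members was −0.0005, with 35 positive and 36 negative, and the all-gene median was 0.02. Mouse 1 had the lowest value of all 7 mice in 48 of the 71 members, or 67.6%, where it was lowest in 34.0% of all genes tested. It was also the library with the fewest reads, and the part of depth or RNA quality in this was not tested.

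**Figure D1:**
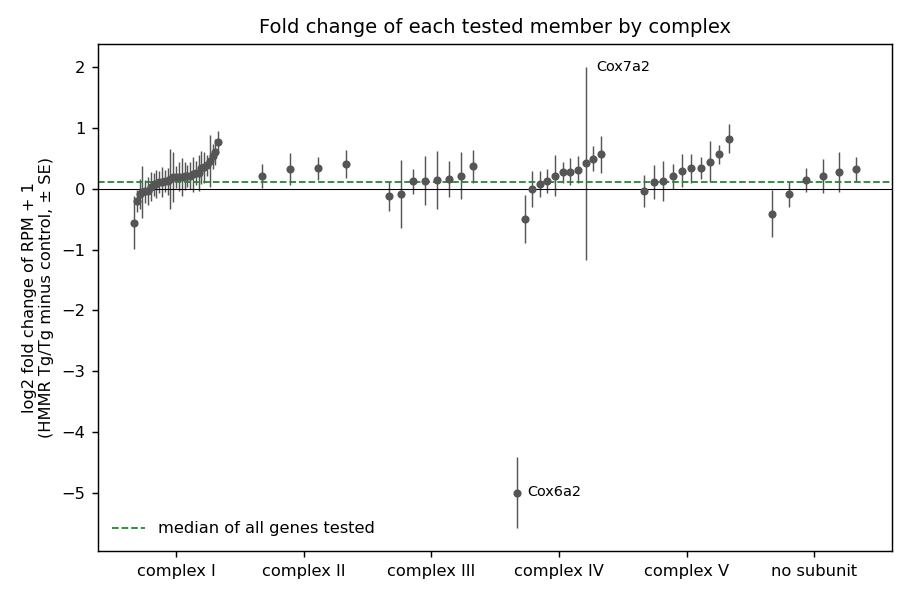
Log2 fold change of RPM + 1 (HMMR Tg/Tg minus control, limma) on the y axis for each of the 71 tested members, grouped by complex on the x axis, with bars of 1 standard error and a dashed line at the median of all genes tested, 0.11. Most points lie between 0 and 1, Cox6a2 stands alone at −4.99, and Cox7a2 has the widest error.

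Summed over the 69 subunit genes, mouse 1 had 8667 RPM, mouse 2 had 11808 RPM and mouse 3 had 12512 RPM. HMMR Tg/Tg mice 7, 8, 9 and 11 had 12264, 12258, 13181 and 12521 RPM. The groups overlapped, since mouse 3 lay inside the range of the HMMR Tg/Tg mice, and mouse 1 was apart from the other 6. The deficit of mouse 1 was uneven among the complexes. Its median deviation from each gene's mean over 7 mice, on the log2 scale, was −0.82 for complex III, −0.66 for complex V, −0.38 for complex I, −0.37 for complex IV and −0.33 for complex II, and −0.23 for all genes tested. It was lowest in 23 of 31 tested genes of complex I, 3 of 4 of complex II, 7 of 8 of complex III, 6 of 12 of complex IV and 8 of 10 of complex V. Mouse 11, the other shallow library, had complex III low at −0.34 and complex II high at 0.27, with −0.10 for all genes.

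**Figure D2:**
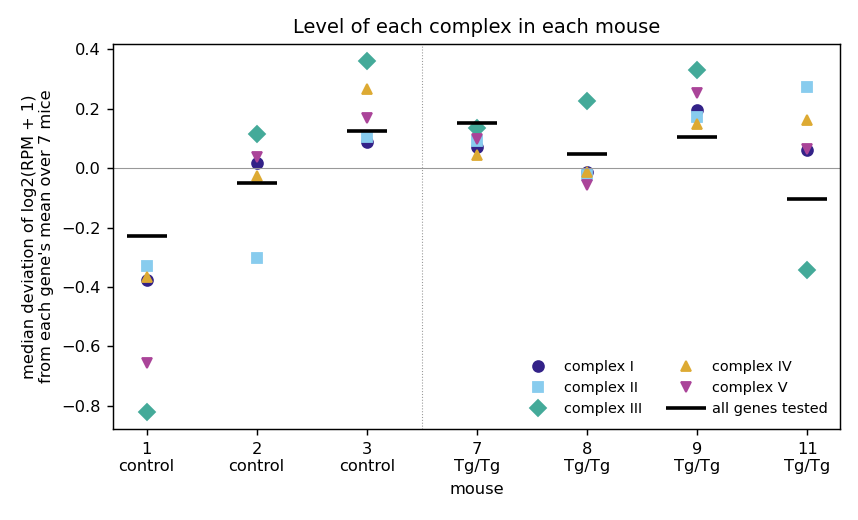
Median deviation of log2(RPM + 1) from each gene's mean over 7 mice (y axis, log2 units) in each mouse (x axis), with a symbol for each complex and a black bar for all genes tested. Control mouse 1 has every complex below the bar for all genes, with complex III lowest at −0.82, and the remaining mice lie between −0.34 and 0.36.

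The median spread between mice was smaller over the members than over all genes, except in complex III, and this was not tested. The SD of log2(RPM + 1) over the 7 mice had a median of 0.34 over the 71 members and 0.43 over all genes tested. By complex it was 0.33 for complex I, 0.31 for complex II, 0.45 for complex III, 0.35 for complex IV and 0.36 for complex V. For 37 of the 70 members with reads in every mouse, the highest mouse was under 2 times the lowest. Ndufc1, an accessory subunit of complex I, had the narrowest range among them, 106 to 147 RPM.

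In complex I, 25 of 31 genes had a positive fold change (median 0.19), with 0 calls in limma at an adjusted p under 0.05. At an unadjusted p under 0.05, 4 of the 31 were higher, beside 6.49% of all genes. The median was 0.19 over the 7 core subunits, which carry the electron path, and 0.19 over the 24 accessory subunits. Without control mouse 1 the complex median was −0.04. Ndufb9, an accessory subunit of the membrane arm, had the lowest p of the complex. It was read at 136, 175 and 192 RPM in control mice 1, 2 and 3 and at 276, 264, 284 and 305 RPM in HMMR Tg/Tg mice 7, 8, 9 and 11. Every HMMR Tg/Tg mouse was above every control mouse, and the means were 168 ± 29.2 RPM (SD, n = 3) and 282 ± 17.1 RPM (SD, n = 4). The log2 fold change was 0.76 (SE 0.18), which did not pass the test (adjusted p = 0.167 from limma, 0.0552 to 0.505 over the alternatives).

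Ndufa5 is an accessory subunit of the matrix arm. Its values were 64.9, 73.6 and 110.3 RPM in control mice and 120.4, 120.1, 136 and 115 RPM in HMMR Tg/Tg mice (log2 fold change 0.60, SE 0.21, adjusted p = 0.365 from limma). The groups did not overlap, with control mouse 3 and mouse 11 close to each other. Ndufb3, another membrane arm subunit, had 108, 121 and 161 RPM in control mice and 200.4, 150.1, 185 and 210.2 RPM in HMMR Tg/Tg mice. Mouse 8 lay inside the control range, and its log2 fold change was 0.53 (SE 0.20, adjusted p = 0.418 from limma).

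**Figure D3:**
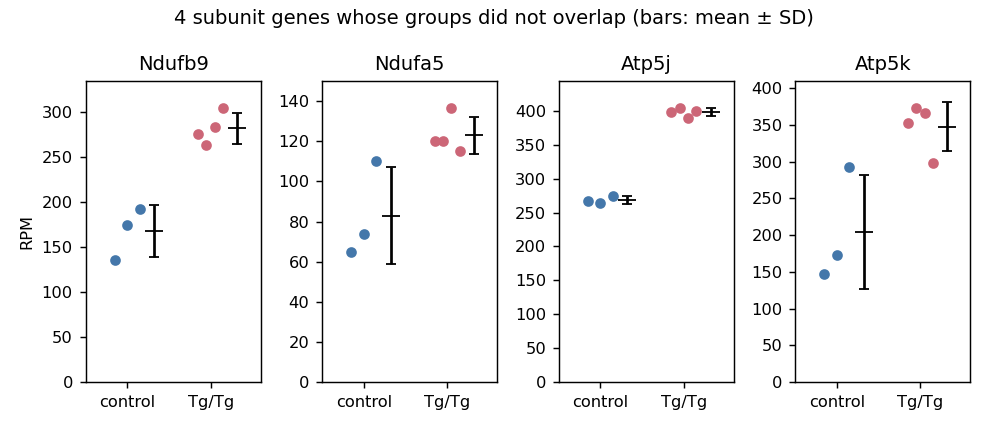
RPM (y axes, each from 0) of 4 subunit genes whose HMMR Tg/Tg mice (red) were all above the control mice (blue), with a point per mouse and bars for mean ± SD (n = 3 and n = 4). Atp5j lies at 264 to 275 against 390.25 to 404 RPM, and none of the 4 passed the adjusted test.

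The genes with most reads in complex I did not separate the groups. Ndufb2 was read at 885, 1394 and 1129 RPM in control mice and at 1047, 1358, 1245 and 1075 RPM in HMMR Tg/Tg mice (log2 fold change 0.07, adjusted p = 0.946 from limma), and the sign was negative under TMM, edgeR and DESeq2 scaling. The groups also overlapped for Ndufa6 (454 to 693 and 560 to 757 RPM, log2 fold change 0.21, adjusted p = 0.796 from limma). Ndufa1, an X-linked membrane arm subunit, was lowest in mouse 9 at 324 RPM and highest in mouse 11 at 625 RPM, both HMMR Tg/Tg (log2 fold change 0.12, adjusted p = 0.914 from limma). At the other end, Ndufb8 was read at 0 to 2.32 RPM and Ndufb6 at 0.542 to 3.64 RPM over all mice. Ndufb8 had no read in mouse 11 and at most 21 reads, in mouse 2.

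Complex II, succinate dehydrogenase, was the only complex with every gene positive, 4 of 4, where 61.2% of all genes were positive. It was also the only complex whose summed RPM did not overlap between groups. Its sum was 781, 735 and 829.7 RPM in control mice and 971, 851, 908 and 1136 RPM in HMMR Tg/Tg mice. The nearest mice, 3 and 8, differed by less than the SD of either group (47.3 RPM, n = 3, and 123 RPM, n = 4). A sum without overlap was not particular to complex II. The 41 assembly factor genes on the panel summed to 1277 to 1372 RPM in the controls and 1431 to 1536 RPM in the HMMR Tg/Tg mice. Some epithelial markers were apart in the same direction, and others were not. The 4 myoepithelial markers summed to 657 to 693 RPM in the controls and 753 to 1218 RPM in the HMMR Tg/Tg mice. Taken singly, 1 of the 4 had groups that did not overlap. Epcam of luminal epithelium had 1108 to 1382 and 1647 to 2430 RPM. It was the 1 of 6 luminal markers without overlap (6.52% of all genes were apart on the higher side). The luminal sum overlapped, at 3395 to 52390.2 and 4314 to 28767 RPM. The part of epithelial cells in the complex II values was not tested. The median fold change of complex II was 0.33, and 0.19 without control mouse 1, and 0 of the 4 genes passed the limma test, adjusted or unadjusted. Sdha, the flavoprotein that binds succinate, was read at 98.5, 125 and 182 RPM in control mice and at 174, 154, 201 and 169.8 RPM in HMMR Tg/Tg mice. Control mouse 3 was inside the HMMR Tg/Tg range (log2 fold change 0.41, SE 0.22, adjusted p = 0.603 from limma).

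Sdhb, the iron-sulfur subunit, was read at 21.3, 22.7 and 37.3 RPM in control mice and at 29.8, 33.6, 43.0 and 27.6 RPM in HMMR Tg/Tg mice (log2 fold change 0.32, adjusted p = 0.736 from limma). Sdhc and Sdhd anchor the enzyme in the membrane. Sdhc had 253, 262 and 283 RPM in control mice and 291, 275, 273 and 406 RPM in HMMR Tg/Tg mice, where mouse 11 stood above all others (log2 fold change 0.21, adjusted p = 0.768 from limma). Sdhd had 409, 325 and 328 RPM in control mice and 477, 389, 392 and 533 RPM in HMMR Tg/Tg mice, with mouse 1 the highest control (log2 fold change 0.33, adjusted p = 0.623 from limma). Mouse 11 was thus highest for both anchors, while mouse 9 was highest for Sdha and Sdhb.

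Complex III had the widest spread between mice and no call. Of its 8 genes, 6 were positive and 2 negative (median 0.14, and −0.24 without control mouse 1), and 0 passed the limma test, adjusted or unadjusted. In sum it was read at 313, 554 and 709 RPM in control mice and at 551, 538, 626 and 488 RPM in HMMR Tg/Tg mice. Control mice 1 and 3 were at the low and the high end of all mice. Uqcrc1, a large core protein on the matrix side, was read at 52.4, 95.4 and 123 RPM in control mice and at 108, 114, 129 and 90.7 RPM in HMMR Tg/Tg mice (log2 fold change 0.36, SE 0.28, adjusted p = 0.702 from limma). Its partner Uqcrc2 was read at 49.7 to 89.9 RPM and at 54.1 to 74.8 RPM (log2 fold change −0.12, adjusted p = 0.899 from limma). Uqcrb, which binds near a ubiquinone site, went from 37.1 RPM in mouse 1 to 136 RPM in mouse 3, both controls (log2 fold change 0.22, SE 0.39, adjusted p = 0.893 from limma). Its sign was negative in DESeq2. Uqcr11, a small subunit, had overlapping groups (123 to 183 and 131 to 183 RPM, log2 fold change 0.12, adjusted p = 0.886 from limma).

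Complex IV has 10 general subunits and 6 tissue isoforms among the members. Of the 9 general subunits tested, 8 were positive with a median of 0.27, and 0 passed the adjusted limma test. At an unadjusted p under 0.05, 1 of the 9, Ndufa4, was higher, beside 6.49% of all genes. Ndufa4 was read at 211, 263 and 196 RPM in control mice and at 380.5, 282, 248 and 359 RPM in HMMR Tg/Tg mice. Mouse 9 fell inside the control range (log2 fold change 0.49, SE 0.21, adjusted p = 0.477 from limma). Cox4i1, the general form of subunit IV, was low in mouse 1 alone at 193 RPM. The other control mice had 297 and 365 RPM and the HMMR Tg/Tg mice 352, 316, 347 and 324 RPM (log2 fold change 0.28, adjusted p = 0.724 from limma).

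Cox6a2 was the gene called. It lies on chromosome 7 (chr7:128205435-128206366, GRCm38) and was read at 40.1, 239 and 35.8 RPM in control mice 1, 2 and 3, and at 1.15, 1.28, 1.79 and 0.837 RPM in HMMR Tg/Tg mice 7, 8, 9 and 11. The groups were far apart, and mouse 2 set the height of the control mean, 105 ± 116 RPM (SD, n = 3) against 1.27 ± 0.397 RPM (SD, n = 4). The HMMR Tg/Tg values rest on 5 to 14 reads per mouse. On the log2(RPM + 1) scale, which understates the change of such low values, the fold change was −4.99 (SE 0.58, adjusted p = 0.00376 from limma). It passed in 16 of 17 alternatives and was −4.12 at its weakest when a mouse was left out. With a pseudocount of 10 it was −2.88 and missed the threshold (adjusted p = 0.0699 from limma, with 3.4e-22 to 0.0699 over the alternatives).

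Cox6a1, the general form of the same subunit, did not fall. It was read at 421, 609.5 and 707 RPM in control mice and at 623, 758, 797 and 650.4 RPM in HMMR Tg/Tg mice (log2 fold change 0.31, SE 0.22, adjusted p = 0.687 from limma). Of the reads of the pair, Cox6a2 took 8.70%, 28.2% and 4.82% in control mice and 0.185%, 0.169%, 0.224% and 0.128% in HMMR Tg/Tg mice. The counting interval (exact Clopper-Pearson, 95%) was 27.2% to 29.2% in mouse 2 and 4.31% to 5.38% in mouse 3, so control mice differed among themselves well beyond counting error. The difference of the group means was −13.7 percentage points (exact permutation test, two-sided, p = 0.0571, 0.152 after Benjamini-Hochberg adjustment over 8 such tests). This p is the smallest that 3 mice against 4 can give. Without control mouse 2 the difference was −6.58 percentage points, and without control mouse 3 it was −18.3.

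Skeletal muscle markers moved with Cox6a2. All 12 of 12 had lower values in every HMMR Tg/Tg mouse than in any control mouse, where 3.34% of all genes did. At an adjusted p under 0.05 in limma, 9 of the markers were lower (0.367% of all genes). The median log2 fold change of the 12 was −6.09. Their sum was 3338, 9818 and 1743 RPM in control mice and 48.8, 120, 69.2 and 38.3 RPM in HMMR Tg/Tg mice, so mouse 2 was highest for the markers as it was for Cox6a2. None of the 12 was at 0 in a control mouse, while Acta1, Ckm, Atp2a1 and Myh1 had no read in mouse 11, and Myh1 and Tnnt3 none in mouse 7. Per 1000 RPM of the markers, Cox6a2 was read at 12.02, 24.4 and 20.5 RPM in control mice and at 23.6, 10.7, 25.9 and 21.8 RPM in HMMR Tg/Tg mice. The range of the HMMR Tg/Tg mice held all control mice (means 19.0 ± 6.31, SD, n = 3, and 20.5 ± 6.77, SD, n = 4, exact permutation test, two-sided, p = 0.743). With 3 mice against 4 this test cannot go below 0.0571, and the HMMR Tg/Tg ratios rest on few Cox6a2 reads, so it does not show that the ratios were equal. Mb and Pygm fell least of the markers (log2 fold change −2.69 and −4.55). They made up 27.5 and 11.0 of the 48.8 RPM in mouse 7. In mouse 11 they made up 18.4 and 15.1 of 38.3 RPM, and in control mouse 2 they made up 554 and 714 of 9818 RPM. In mice 7 and 11 the ratio thus rests mostly on Mb and Pygm, and it was not computed without them.

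**Figure D4:**
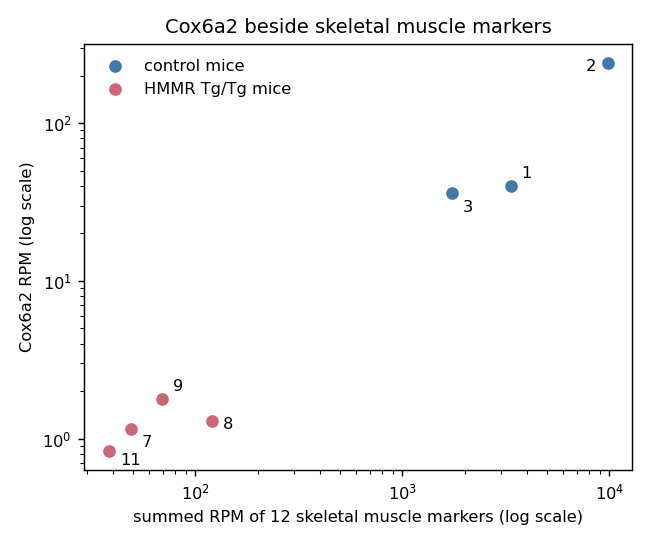
RPM of Cox6a2 (y axis, log scale) against the summed RPM of 12 skeletal muscle markers (x axis, log scale), with a point per mouse labelled by its number. The control mice, at 1743 to 9818 RPM of the markers, lie at the upper right and the HMMR Tg/Tg mice, at 38.3 to 120 RPM, at the lower left, without overlap on either axis.

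The other muscle isoforms, which the symbol rule left out and which are given here as partners, did not follow Cox6a2. Cox8b was read at 392, 417 and 324 RPM in control mice and at 88.5, 171, 473 and 702 RPM in HMMR Tg/Tg mice. The HMMR Tg/Tg mice spanned the control mice on both sides (log2 fold change −0.49, SE 0.58, adjusted p = 0.821 from limma). Cox8a was read far more evenly, at 17.3 to 31.8 RPM (log2 fold change −0.004, adjusted p = 0.997 from limma). Cox7a1 was read at 3.07, 12.7 and 3.74 RPM in control mice and at 6.66, 4.17, 1.53 and 9.54 RPM in HMMR Tg/Tg mice, also with overlap (log2 fold change −0.17, SE 0.56, adjusted p = 0.949 from limma). Mouse 11, highest for Cox8b, was the only mouse with more than 1 read of Ucp1, the uncoupling protein of brown fat, at 58.2 RPM. The other brown fat markers were mixed in this mouse. It was highest for Cidea (13.9 RPM) and Elovl3 (3.35 RPM) and lowest for Dio2 (0.669 RPM). Ppargc1a was highest in mouse 9 (44.8 RPM, 19.7 RPM in mouse 11) and Cox7a1 in control mouse 2. Control mice had no Ucp1 read and still had 324 to 417 RPM of Cox8b. The 5 tested brown fat markers include Cox7a1 and Cox8b themselves, so they are only in part a separate comparison. Ucp1 was below the filter and not tested. Of the 5, 0 passed the adjusted limma test and 1, Ppargc1a, was higher at an unadjusted p under 0.05 (6.49% of all genes). Whether cells of brown fat had a part in the Cox8b values of mouse 11 was not tested.

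**Figure D5:**
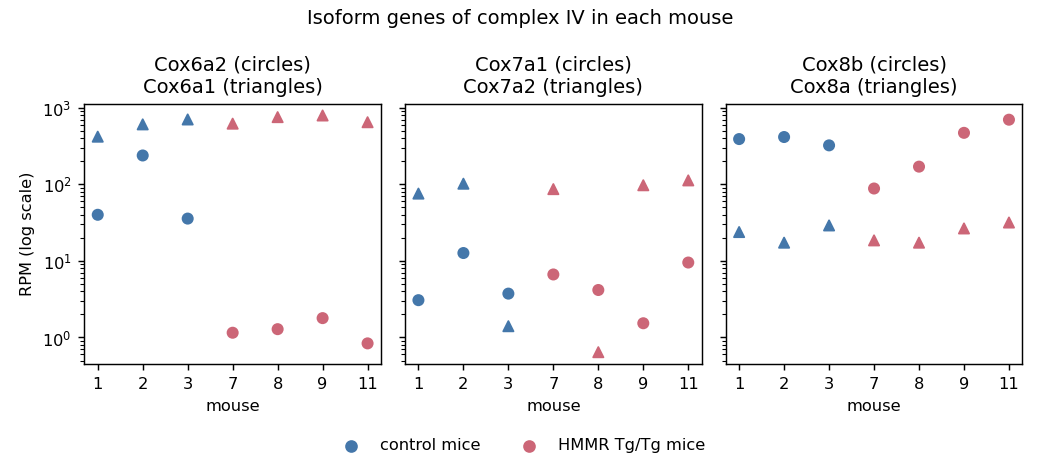
RPM (y axis, log scale) in each mouse (x axis) of 3 isoform pairs of complex IV, with the muscle form as circles and the general form as triangles, control mice in blue and HMMR Tg/Tg mice in red. Cox6a2 alone separates the groups, Cox8b runs from 88.5 to 702 RPM among the HMMR Tg/Tg mice, and Cox7a2 drops in mice 3 and 8.

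Cox7a2, the general form of subunit VIIa, had many reads in some mice and few in others of both groups. It was read at 75.9, 102 and 1.40 RPM in control mice and at 86.8, 0.642, 97.6 and 112.9 RPM in HMMR Tg/Tg mice. Mouse 3 and mouse 8 were the low ones, and neither was a shallow library. The SD of log2(RPM + 1) over the 7 mice was 2.73, and only 31 of the 13080 genes tested had a larger one. The groups did not differ beyond this spread (log2 fold change 0.42, SE 1.58, adjusted p = 0.958 from limma). Since 1 amplicon stands for the gene, less RNA and an amplicon that read poorly in these mice cannot be told apart. Cox7a1 was at 3.74 RPM in mouse 3 and 4.17 RPM in mouse 8, inside its range in the other mice.

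The remaining tissue isoforms gave no call. Ndufa4l2, a paralog of Ndufa4 that is induced in hypoxia, was read at 23.5, 15.8 and 39.3 RPM in control mice and at 42.5, 32.3, 31.6 and 41.5 RPM in HMMR Tg/Tg mice. The groups overlapped (log2 fold change 0.56, SE 0.30, adjusted p = 0.589 from limma). Cox6b2, the testis form of subunit VIb, had 0.669 to 4.09 RPM (log2 fold change −0.49, adjusted p = 0.724 from limma). Cox4i2, a lung form of subunit IV, stayed at 0.167 to 1.41 RPM and was not tested. Cox7b2 had 1 read, in mouse 9, and the testis form Cox8c had none in any mouse. Cox6c, which is a general subunit, was also below the filter at 0 to 1.07 RPM.

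Complex V held the member with the largest positive fold change, Atp5k of the membrane part. The 5 genes of the stalk and Fo were all positive with a median of 0.44, and the 5 genes of the F1 head had a median of 0.12 with 4 positive. No test of that difference was made. Over the complex the median was 0.31, and 0.02 without control mouse 1, and 0 of 10 passed the adjusted limma test. At an unadjusted p under 0.05, 2 of the 10 were higher, beside 6.49% of all genes. Atp5j, coupling factor 6 of the peripheral stalk, had little spread within either group. It was read at 268, 264 and 275 RPM in control mice and at 399, 404, 390.25 and 399.7 RPM in HMMR Tg/Tg mice. The means were 269 ± 5.69 RPM (SD, n = 3) and 398 ± 5.73 RPM (SD, n = 4). Its log2 fold change was 0.56 (SE 0.16, unadjusted p = 0.00492 and adjusted p = 0.265, both from limma), and it stayed between 0.55 and 0.58 when any mouse was left out, mouse 1 included.

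Atp5k, subunit e, which helps ATP synthase form dimers, was read at 148, 173 and 292 RPM in control mice and at 353, 373, 367 and 299 RPM in HMMR Tg/Tg mice. Mouse 3 and mouse 11 nearly met (log2 fold change 0.82, SE 0.24, adjusted p = 0.275 from limma). Atp5g3 encodes the ring protein of Fo and was read at 272, 261 and 255 RPM in control mice and at 364, 272, 324 and 380.5 RPM in HMMR Tg/Tg mice. Mouse 8 was level with mouse 1 (log2 fold change 0.34, SE 0.18, adjusted p = 0.588 from limma). Atp5j2, subunit f, had 292, 634 and 848 RPM in control mice and 657, 917, 844 and 567 RPM in HMMR Tg/Tg mice. Its control range was nearly as wide as the range of all mice (log2 fold change 0.44, SE 0.34, adjusted p = 0.707 from limma). Atp5a1, the α subunit of the head, had 413, 815 and 859 RPM in control mice and 666, 587, 703 and 621 RPM in HMMR Tg/Tg mice, all within the control range (log2 fold change −0.04, SE 0.26, adjusted p = 0.973 from limma).

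Promoter sequence was compared to see what the members share that the symbol rule did not use. RefSeq (GRCm38.p6) gave a promoter for 58 of the 76 members, and the 250 bases before the start were searched on both strands, with the same window of 27025 genes as background. The NRF1 motif (GCGCA, any base, then GCGC) was in 9 members, among them Ndufa5, Sdha, Sdhd, Cox6a1 and Atp5k (15.5%, against 4.23% of all genes). The ETS motif CCGGAAG was in 12 members (20.7%, against 7.83%). The ERR motif AAGGTCA was in 2 (3.45%, against 4.70%), the YY1 motif AAGATGGC in 1 (1.72%, against 1.83%), TATAAA in 4 (6.90%, against 14.3%), and the E-box CAGCTG in 4 (6.90%, against 14.7%). A MEF2 motif was in 0 of the 58 (3.42% of all genes). The ETS motif ends in the AAG that opens the ERR and YY1 motifs, so a stretch could match a pair of them. They are matches of letters only, and the background holds genes of every kind. Cox6a2 had no entry.

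The promoters of Atp5j, Atp5k and Cox6a1 are shown because the first pair had the largest fold changes of complex V with groups apart and Cox6a1 is the general partner of Cox6a2. Each is on the minus strand, reads 5′ to 3′ towards the start, and has its matches in capitals. In Atp5j (chr16:84834977-84835226), at 1 of its 2 starts, the capitals are AAGATGGC, 80 bases before the start, and CCGGAAG, 54 bases before it. In Atp5k (chr5:108434400-108434649) the capitals are the NRF1 match GCGCATGCGC, 40 bases before the start. In Cox6a1 (chr5:115348959-115349208) they are GCGCATGCGC and GCGCAGGCGC, 152 and 107 bases before the start, and CTTCCGG, the ETS motif on the other strand, 9 bases before it.
Atp5j: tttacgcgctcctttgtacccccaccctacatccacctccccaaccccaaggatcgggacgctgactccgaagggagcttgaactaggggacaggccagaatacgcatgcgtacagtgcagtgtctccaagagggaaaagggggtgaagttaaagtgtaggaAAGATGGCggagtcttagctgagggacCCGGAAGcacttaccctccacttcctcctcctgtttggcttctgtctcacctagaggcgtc
Atp5k: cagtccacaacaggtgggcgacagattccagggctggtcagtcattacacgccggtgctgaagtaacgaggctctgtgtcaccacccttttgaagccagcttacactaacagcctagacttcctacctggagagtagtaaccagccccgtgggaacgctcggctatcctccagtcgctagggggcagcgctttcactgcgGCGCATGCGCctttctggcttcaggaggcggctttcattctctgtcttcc
Cox6a1: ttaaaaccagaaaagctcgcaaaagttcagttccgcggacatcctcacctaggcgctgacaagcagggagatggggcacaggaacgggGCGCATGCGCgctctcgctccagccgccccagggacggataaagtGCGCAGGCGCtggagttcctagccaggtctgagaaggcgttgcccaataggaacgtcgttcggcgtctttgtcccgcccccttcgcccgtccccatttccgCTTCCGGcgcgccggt
Atp5k and Cox6a1 share the match GCGCATGCGC, and their fold changes of 0.82 and 0.31 both missed the adjusted limma test.

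The 7 rows that encode no subunit added no call. Sdhaf4, which helps assemble the flavoprotein of complex II, was read at 40.3, 37.3 and 36.7 RPM in control mice and at 60.7, 42.4, 47.7 and 42.3 RPM in HMMR Tg/Tg mice. The groups did not overlap (log2 fold change 0.32, SE 0.21, adjusted p = 0.656 from limma). The pseudogene Atp5c1-ps had no read in any mouse.

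Genes that build or feed the chain gave no call either. Over all genes tested, 61.2% were positive (median 0.11) and 6.49% were higher at an unadjusted p under 0.05 in limma. Of 41 assembly factor genes on the panel, 39 were tested. The list includes Sdhaf1, Sdhaf2, Sdhaf3 and Sdhaf4, which are also among the members. Of the 39, 27 were positive (69.2%, median 0.27), 0 passed the adjusted limma test and 3 were higher at an unadjusted p under 0.05. The groups did not overlap for 6 of the 39 on the higher side and 0 on the lower, beside 6.52% and 3.34% of all genes. Pet100, which acts in complex IV assembly, had 58.0, 71.2 and 99.8 RPM in control mice and 139, 183, 127 and 116 RPM in HMMR Tg/Tg mice, without overlap (log2 fold change 0.89, SE 0.24, adjusted p = 0.231 from limma). Of 12 enzymes of the tricarboxylic acid cycle, 9 were positive (median 0.24), 0 passed the adjusted test and 1, Idh3a, was higher at an unadjusted p under 0.05 (log2 fold change 0.65, adjusted p = 0.334 from limma). The 11 regulators of mitochondrial biogenesis on the panel varied among the control mice. Their median deviation on the log2 scale was −0.80 in mouse 1 and 0.33 in mouse 3, with −0.36 to 0.25 in the HMMR Tg/Tg mice. All 11 had a positive fold change, from 0.002 to 1.40 (median 0.33). There were 0 adjusted calls, and 1 was higher at an unadjusted p under 0.05 in limma. That gene was Ppargc1a, a coactivator that raises transcription of respiratory genes and is high in brown fat and muscle. It was read at 7.77, 5.74 and 13.0 RPM in control mice and at 25.4, 14.0, 44.8 and 19.7 RPM in HMMR Tg/Tg mice. The groups did not overlap, with mouse 9 highest, while the change, 1.40 on the log2 scale, did not pass limma (adjusted p = 0.274).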

How the data were processed

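RNA of paraffin sections from 7 mice was sequenced on an Ion Torrent panel. The values the authors deposited as TPM are RPM, made by dividing each amplicon's reads by the reads of the mouse, with no length correction. Every mouse sums to 1e6, and all values under 1000 reads were whole reads within 0.05 (100% in each mouse). Per the submitters' processing notes the build was mm10 and Transcriptome Analysis Console was used. The aligner is not given in the sources used here. Tests used limma 3.58.1 (R 4.3.3, eBayes with trend, genotype only) on log2(RPM + 1) for the 13080 genes that reached 1 RPM in 3 or more mice, with Benjamini-Hochberg adjustment over all of them. The recovered reads were tested with edgeR 4.0.16 and DESeq2 1.42.0 as alternatives (12803 genes with an adjusted p in DESeq2). Single values were compared by exact permutation over 35 splits, doubling the smaller tail. No 2 libraries of a group were within sampling noise of each other (chi-square per degree of freedom 27.6 to 140.2). The fit was tested on simulated data.

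Groups came from the sample titles. Each mouse is 1 sample, so p-values measure the spread between these mice. Intervals and the floor of 3 reads cover counting error only. Named genes were members called, isoforms, untested members and, per complex, the 3 of highest mean and of lowest p. Ndufc1, Ndufb6, Ndufb8, Uqcrc2, Sdhaf4, Pet100, Idh3a, Ppargc1a, Epcam and Ucp1 were named after their values were seen. The same holds for Mb, Pygm, Cidea, Elovl3 and Dio2. The members and lists were chosen with earlier results of these data known. Symbols were matched to RefSeq genes of GRCm38.p6. Alternatives were pseudocounts of 0.1 and 10, other filters, TMM factors, quantile normalization, no trend, array weights and leaving out each mouse. Scaling without the 10 most abundant amplicons, and complex IV without Cox6a2 and Cox7a2, were added after the data were seen. Close paralogs and pseudogenes could share reads. The NRF1 motif was widened to a free base in its middle after the matches of a narrower form had been seen. Some genes are not reported here.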

Additional observations from a re-analysis of the deposited data

Results flagged for a closer look

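Among 36 values checked in the 4 HMMR Tg/Tg mice, 3 had 1 mouse far from the other 3, where chance marks about 1 in 20. Ndufa6, an accessory subunit of complex I, was at 757.4 RPM in mouse 9 and at 559.9 to 580.65 RPM in the others (gap over range 0.895, past Dixon's critical value). Sdhc, a membrane anchor of complex II, was at 405.8 RPM in mouse 11 and at 273 to 291 RPM in the others (gap over range 0.864). Cox7b2 had its single read in mouse 9 (0.128 RPM) and 0 in the others, which is below the floor of 3 reads. The control group, with 3 mice, was not checked in this way.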

How the results depend on the processing

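No paired analysis was possible because the groups share no mouse number. The count of lower members was 0 with a pseudocount of 10, where the log2 fold change of Cox6a2 was −2.88 (adjusted p = 0.0699 from limma), and 0 with at least 5 RPM required in all 7 mice, a filter that removes Cox6a2. The Cox6a2 fold change ran from −5.47 to −4.12 over the sets with 1 mouse left out. Signs turned for Cox7a2 with array weights (−0.22), for Ndufb2 with TMM factors (−0.024), edgeR (−0.035) and DESeq2 (−0.054), and for Uqcrb with DESeq2 (−0.011). Leaving out each mouse in turn gave medians of −0.0394 to 0.26 for complex I, 0.19 to 0.42 for complex II, −0.24 to 0.38 for complex III, 0.02 to 0.31 for complex IV and 0.0250 to 0.42 for complex V, each with its lowest value without control mouse 1. It gave ranges across 0 for Atp5a1 (−0.38 to 0.15), Atp5j2 (−0.00050 to 0.77), Cox7a1 (−0.50 to 0.38), Cox7a2 (−1.32 to 1.90), Cox8a (−0.20 to 0.16), Cox8b (−0.96 to 0.0335), Ndufa1 (−0.0579 to 0.26), Ndufb2 (−0.10 to 0.23) and Uqcrb (−0.32 to 0.61). The causes were not tested. The Cox6a2 share of the pair differed by −18.3 to −6.58 percentage points with a mouse left out. Of 591 recomputed fold changes and complex medians, 565 kept their sign and 26 turned, among them the median of complex III in DESeq2 (−0.00065). Complex IV without Cox6a2 and Cox7a2 had the same median, 0.24. Amplicons under about 5 RPM rest on few reads.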
